A study of Homo sapiens with 28 samples.

Results

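The cultures of HuH7, a human hepatoma line, were set against the mean of 3 other human liver tumour lines in vitro, HepG2, Hep3B and PLC/PRF/5. Each line was given equal weight, and the culture conditions of the lines were not compared. The members are the 3 HuH7 libraries from cultures and all genes read in them. The other lines supply 9 culture libraries, 3 each, so 12 of the 28 libraries of the series enter the comparison. Of 18961 amplicons read, 12377 passed the filter on low values and were tested. The question of the comparison is what sets HuH7 apart as a liver cancer model before any grafting.

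The series was built around tumours that the 4 lines form when they are placed on the membrane of a chick egg, and those tumour libraries are used here only for a side comparison in the closing part. None of the 4 culture groups carries a label for a genotype change, an agent or a dose. All 12 were cells in vitro whose RNA was taken up with the Mini RNeasy kit, and each library started from 500 ng of total RNA. The libraries were made with DriverMap amplicons, a targeted assay in which 1 short stretch of each transcript is amplified and sequenced. HepG2 is known as a hepatoblastoma line, whereas the others come from liver carcinomas, and PLC/PRF/5 and Hep3B carry integrated hepatitis B virus DNA. Each group is 1 line, so a value describes that line and no class of tumours. The labels do not say that the 3 libraries of a line came from separate cultures, so p-values measure only the spread between libraries, which may be technical.

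Hepatocytes make most plasma proteins and lipoproteins, build cholesterol and fatty acids, detoxify drugs and turn ammonia into urea. A network of transcription factors, among them HNF4A and the GATA and FOXA factors, keeps these programmes on. Hepatoma lines hold on to different portions of this programme and often turn on fetal genes such as AFP. Cells also display peptides on class I molecules and answer viral RNA through interferon-stimulated genes. HuH7 is widely used to grow hepatitis C virus.

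Levels are given as CPM, that is reads scaled to a fixed total per library, after TMM scaling, and differences as HuH7 minus the mean of the other 3 lines on log2(CPM + 1), which understates the change of genes with low levels. Recovered depth was 6205368 to 8662998 reads in the 12 libraries and 7420276 to 8277293 in HuH7, so that a floor of 3 reads was 0.346 to 0.483 CPM. All 12 libraries lay nearest to their own group, and replicates correlated across genes at 0.9904 to 0.9961. The median SD of a gene on the log2 scale was 0.0965 in HuH7, 0.122 in HepG2, 0.106 in Hep3B and 0.16 in PLC/PRF/5. PLC/PRF/5 replicate 2 stood apart from its fellows, with a chi-square per degree of freedom of 13.9 and 12.1 against them, while no other pair exceeded 4.64. Each gene rests on 1 amplicon, so a missing transcript and an amplicon that fails in 1 line cannot be told apart, and levels of different genes are not compared.

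The hepatocyte label held for 3 of the lines. Of 12 hepatocyte markers, 11 exceeded 10 CPM in HuH7, where they summed to 15900 to 16200 CPM per library, and APOH, a plasma glycoprotein, was under the floor. They summed to 105000 to 116000 CPM in HepG2 and 38200 to 40500 in Hep3B, with all 12 over 10 CPM in each. In PLC/PRF/5 the sum was 26.8 to 35 CPM, 1 marker exceeded 10 CPM, and ALB, APOH, TTR and ASGR1 were among those under the floor. The libraries labelled PLC/PRF/5 in vitro thus went against the hepatocyte label, and whether they are that line was not tested. PLC/PRF/5 tumours held 134 CPM of HNF4A and 359.8 CPM of SERPINA1 on average, but 0.148 CPM of ALB and 1.38 of TTR. For SERPINA1 the tumours of HepG2 held 66770 CPM and those of Hep3B 118100. A difference from the mean of the 3 lines therefore holds, for hepatocyte genes, a contrast with cultures that were low in them, and such results are given also with PLC/PRF/5 left out. Endothelial markers summed to 155 to 200 CPM in HuH7, against 48.6 to 59.4 in HepG2, with CDH5, KDR, TEK, TIE1, CLDN5 and ERG under the floor in HuH7. Leukocyte markers summed to 45.2 to 50.5 CPM in HuH7, with CD3E, NKG7 and TYROBP under the floor. Fibroblast and stellate markers summed to 429 to 449 CPM in HuH7, against 38.4 to 41.1 in HepG2, 125 to 127 in Hep3B and 177 to 239 in PLC/PRF/5. Markers of stratified epithelium summed to 21.9 to 28.5 CPM in HuH7 and to at most 7.6 elsewhere.

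The amplicons behind 6 of the differences are printed here because each gene's value rests on its one stretch of transcript. They are 5′ to 3′ on the transcript, as the deposited table holds them and as matched to GENCODE 29 on GRCh38, and capitals mark the 2 bases on either side of an exon junction. All 6 lay in coding sequence. The first 4 belong to genes that were high in HuH7, at chr3:86968894-86969066 on the minus strand (VGLL3), chr4:41261906-41267999 on the plus strand (UCHL1), chr11:67585238-67586465 on the plus strand (GSTP1) and chr5:43292534-43292876 on the minus strand (HMGCS1). The last 2 belong to genes near 0 in HuH7, at chr3:52524521-52524708 on the minus strand (NT5DC2) and chr5:16670697-16670839 on the minus strand (MYO10).
VGLL3: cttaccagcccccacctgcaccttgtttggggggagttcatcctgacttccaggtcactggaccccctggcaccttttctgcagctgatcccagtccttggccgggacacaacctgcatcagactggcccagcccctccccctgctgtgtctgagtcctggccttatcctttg
UCHL1: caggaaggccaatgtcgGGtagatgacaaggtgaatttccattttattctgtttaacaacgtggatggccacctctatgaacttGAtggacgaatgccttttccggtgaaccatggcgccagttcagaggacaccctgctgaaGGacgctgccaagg
GSTP1: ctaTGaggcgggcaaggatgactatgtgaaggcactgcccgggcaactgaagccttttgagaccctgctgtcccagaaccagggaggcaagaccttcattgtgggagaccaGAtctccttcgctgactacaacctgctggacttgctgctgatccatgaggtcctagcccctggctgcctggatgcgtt
HMGCS1: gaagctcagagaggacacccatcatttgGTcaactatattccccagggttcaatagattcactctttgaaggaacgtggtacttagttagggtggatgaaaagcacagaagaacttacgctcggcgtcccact
NT5DC2: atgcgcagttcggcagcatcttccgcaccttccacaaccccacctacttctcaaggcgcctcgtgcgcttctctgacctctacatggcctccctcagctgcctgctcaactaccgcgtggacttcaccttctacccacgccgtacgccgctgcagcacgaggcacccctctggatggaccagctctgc
MYO10: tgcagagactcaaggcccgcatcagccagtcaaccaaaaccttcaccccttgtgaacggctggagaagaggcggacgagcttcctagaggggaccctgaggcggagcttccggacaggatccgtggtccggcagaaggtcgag

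HuH7 differed from the mean of the other lines at most genes. With limma and Benjamini-Hochberg adjustment, 4767 genes were higher in HuH7 (38.5% of those tested) and 4565 were lower (36.9%), 75.4% in either direction. The median difference over all tested genes was 0.01. A call alone therefore says little about a gene, and 2 stricter descriptions are used beside it. All 3 HuH7 libraries lay above all 9 others at 2001 called genes (16.2%) and below all 9 at 1433 (11.6%). At least 2-fold differences were called for 1916 genes higher (15.5%) and 1472 lower (11.9%). Against single lines, which share the HuH7 libraries, 4756 genes were higher (38.4%) and 4464 lower (36.1%) than in HepG2, 4267 (34.5%) and 4152 (33.5%) than in Hep3B, and 4992 (40.3%) and 4568 (36.9%) than in PLC/PRF/5. Across genes, the mean HuH7 profile correlated with that of Hep3B at 0.865, HepG2 at 0.79 and PLC/PRF/5 at 0.713, a description in which genes are not independent replicates.

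The gene that stood highest over the other lines was VGLL3, a cofactor of TEAD transcription factors. Its HuH7 libraries held 9893, 10330 and 9893 CPM, against 1.63, 1.18 and 1.05 in HepG2, 25.4, 21.1 and 25.9 in Hep3B and 130.2, 147.7 and 119.6 in PLC/PRF/5. No library of another line came near, and the difference was 9.0 (SE 0.0843, limma adjusted p = 1.84e-18). UCHL1, a ubiquitin hydrolase best known from neurons, held 1891, 1948 and 1923 CPM in HuH7, 86.8, 86.3 and 84.8 in Hep3B, and at most 0.585 in HepG2 and PLC/PRF/5, for a difference of 8.48. Hep3B was the nearest line for UCHL1 as well as for GJA1, the gap junction protein connexin 43 (difference 6.79), and for NPPB, which encodes a natriuretic peptide (6.01). COL14A1, a fibril-associated collagen, held 325, 317 and 377 CPM in HuH7 and at most 0.394 in any other library. HAVCR1, a hepatitis A virus receptor, held 439, 464 and 458 CPM in HuH7 against 2.76 as the median of the other 9 and 8.51 as their highest. Also among the 15 highest genes that the naming rule gave were HIST1H1A, TMEM176B, HIST1H3I, ADAMTS12, XAGE2, KCNJ16, NID2 and WDR72.

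The lowest gene was SNURF, which shares a transcript with SNRPN in the imprinted region of the proximal long arm of chromosome 15. SNURF held 0.239, 0.129 and 0 CPM in HuH7, 656 to 721 in HepG2, 1710 to 1886 in Hep3B and 342 to 438 in PLC/PRF/5, a difference of -9.47 (SE 0.0782, limma adjusted p = 6.37e-19). Its amplicon matched 3 annotated genes and that of SNRPN matched 2, so the pair cannot be told apart with certainty. SNRPN, a spliceosomal protein, held 0.119, 0 and 0 CPM in HuH7 against 93.54 to 454.9 over the other 9, a difference of -7.76. Both transcripts were thus close to absent in HuH7 and present in each of the others. Of their neighbours, looked at after these values were seen, MAGEL2 and NDN had a mean of at most 0.04297 CPM in every line. UBE3A was 13.8 CPM in HuH7 against 20.97 in HepG2, 28.8 in Hep3B and 28.9 in PLC/PRF/5. MKRN3 went the other way (0.76), at 6.84 CPM in HuH7 against 5.62 in HepG2, 0.148 in Hep3B and 12.4 in PLC/PRF/5.

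LY6E, an interferon-inducible membrane protein, had 0 reads in each HuH7 library and 127 to 957 CPM over the other 9. With HuH7 set to a floor of 3 reads, that is at least 1020-fold under the average of the 3 other line means. PLC/PRF/5 weighed most in that average, at 939 CPM, and the bound against the lowest single library is smaller. GSTT1, a glutathione transferase, was also at 0 in HuH7 with 27.1 to 172 CPM elsewhere, and its amplicon could not be placed on the annotation. By the same measure, against the average of the line means, it was at least 218-fold lower. NT5DC2, a nucleotidase-domain protein, held 0, 0.129 and 0 CPM in HuH7 against 117 to 238. MYO10, a motor of filopodia, held 0, 0 and 0.131 CPM against 73.5 to 354, and PTK7, a receptor-like pseudokinase of planar polarity, held 0.597, 0.387 and 0.785 against 79.1 to 667. For these 5 genes the HuH7 libraries were at or next to 0 while no library of another line fell under 27.1 CPM. Also among the 15 lowest were CANT1, PRPS2, AFDN, IFITM3, PTPRS, ABR and LGALS3BP. LGALS3BP, a secreted galectin-3 ligand, was still clearly present in HuH7, at 13.6, 15.33 and 14 CPM against 643 to 1519.

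**Figure D1:**
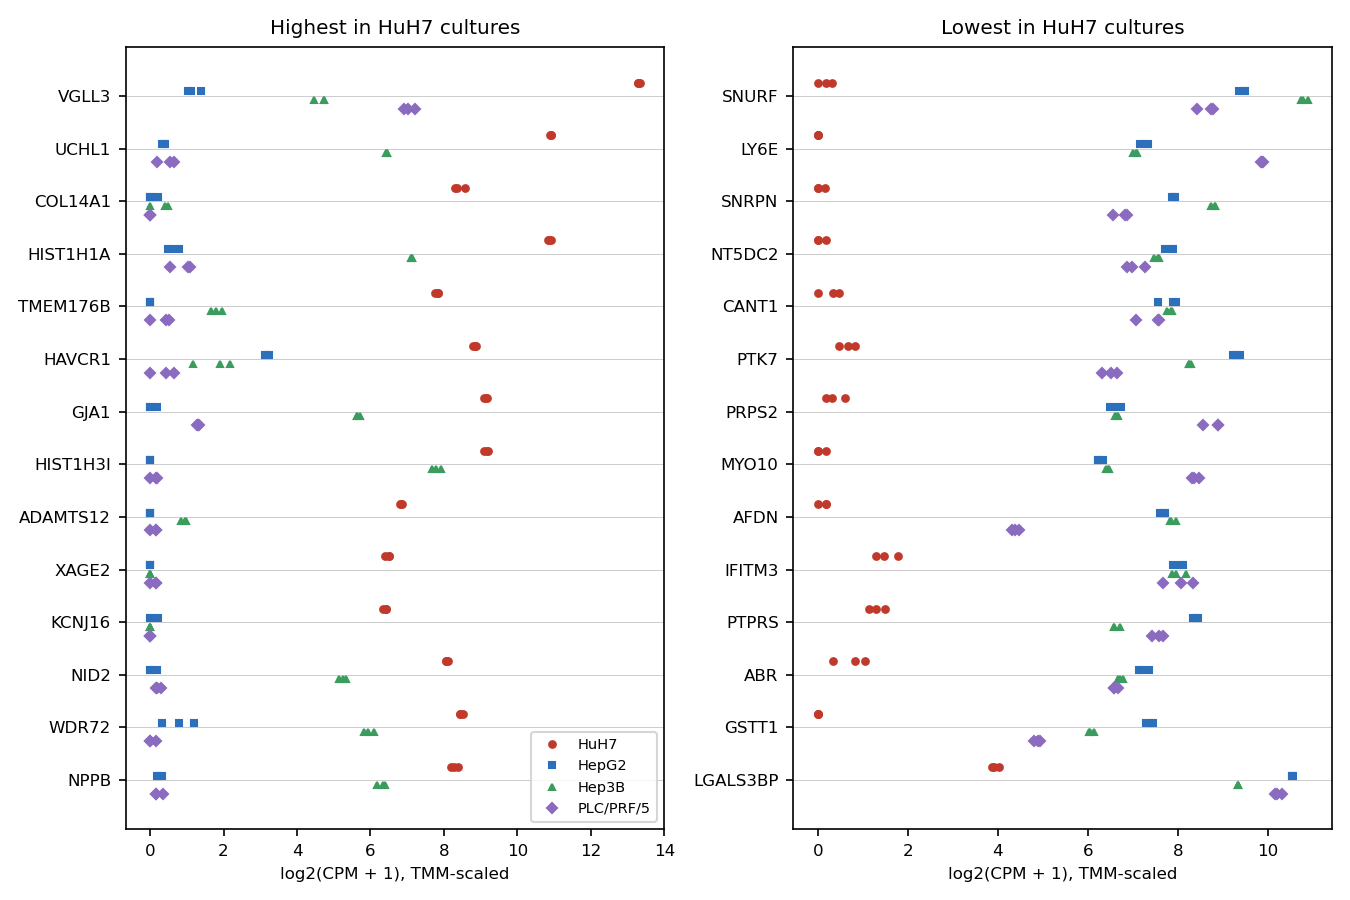
Level of 14 of the 15 genes highest (left) and 14 of the 15 lowest (right) in HuH7 cultures against the mean of the other lines, as log2(CPM + 1) after TMM scaling on the x axis, with 1 symbol per library and 3 libraries per line. In the left panel HuH7 lies to the right of all other libraries for all 14 genes, often with Hep3B next, and in the right panel it lies to the left of all others, near 0 for most genes and near 4 for LGALS3BP.

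Cholesterol synthesis had the largest share of higher members of the 44 gene lists tested. Of 23 members of the cholesterol list, all tested, 21 were higher in HuH7, 0 were lower and 2 did not pass, beside 38.5% higher over all genes. In 16 of them the 3 HuH7 libraries lay above all 9 others, and the median difference was 1.04. HMGCS1, the synthase at the head of the mevalonate pathway, had 1835, 1849 and 1817 CPM in HuH7, 109, 109 and 102 in HepG2, 317, 332 and 299 in Hep3B, and 72.6, 73.6 and 71.4 in PLC/PRF/5. Its difference was 3.76 (SE 0.0468, limma adjusted p = 3.31e-17). DHCR7, which catalyses a last step of the pathway, had 1676, 1730 and 1695 CPM against 271 to 793 (1.84). HMGCS1 and DHCR7 thus stand near the start and at the end of the pathway, and neither had a library that overlapped. INSIG1, which holds back the SREBP factors in the endoplasmic reticulum, was 61.2, 64.4 and 60.1 CPM in HuH7 and had 0 reads in all 3 HepG2 libraries. The 2 members that did not pass were TM7SF2 (0.08) and SC5D (0.08), both sterol enzymes.

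The excess did not hang on PLC/PRF/5: with that line left out 21 members were higher and 1 was lower, with a median of 1.00. With HepG2 left out 21 were higher and 0 lower (0.9), and with Hep3B left out 22 and 0 (1.19). SREBF2, the transcription factor that drives the sterol genes, was itself higher, at 1066 CPM against 532 in HepG2, 721 in Hep3B and 461 in PLC/PRF/5; it was picked out after its values were seen. The core CACCCCAC of a sterol regulatory element, searched on both strands of the 250 bases before the start, was in 1 of 16 RefSeq promoters matched to this list (6.25%), that of SREBF2, against 2.43% of all 35116 promoters of that table (GRCh38.p14).

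Fatty acid synthesis moved alike. Of 23 members tested, 17 were higher and 2 lower, with a median of 1.04 and 10 above all 9 other libraries. FASN, the fatty acid synthase, had 15710, 15490 and 15020 CPM in HuH7 against 6246 to 8127 in HepG2, 8404 to 9465 in Hep3B and 5459 to 7989 in PLC/PRF/5, a difference of 1.04 (SE 0.115, limma adjusted p = 9.75e-07). FADS2, a desaturase of polyunsaturated fatty acids, had 171, 177 and 187 CPM against 5.78 to 28.5 (3.44). ME1, which supplies NADPH, differed by 2.40, AGPAT2, an acyltransferase of glycerolipid synthesis, by 2.13, and the phosphatidate phosphatase LPIN1 by 1.73, each above all 9 others. The 2 lower members were the elongase ELOVL5 (-0.52) and MLXIPL (-1.0), which encodes the carbohydrate response factor ChREBP. SCD, the stearoyl desaturase, was higher at 1.02, with overlapping libraries. Fatty acid oxidation was less one-sided: of 22 tested, 10 were higher and 4 lower, with a median of 0.21. There the ketone body enzyme BDH1 lay below all 9 (-1.89).

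**Figure D2:**
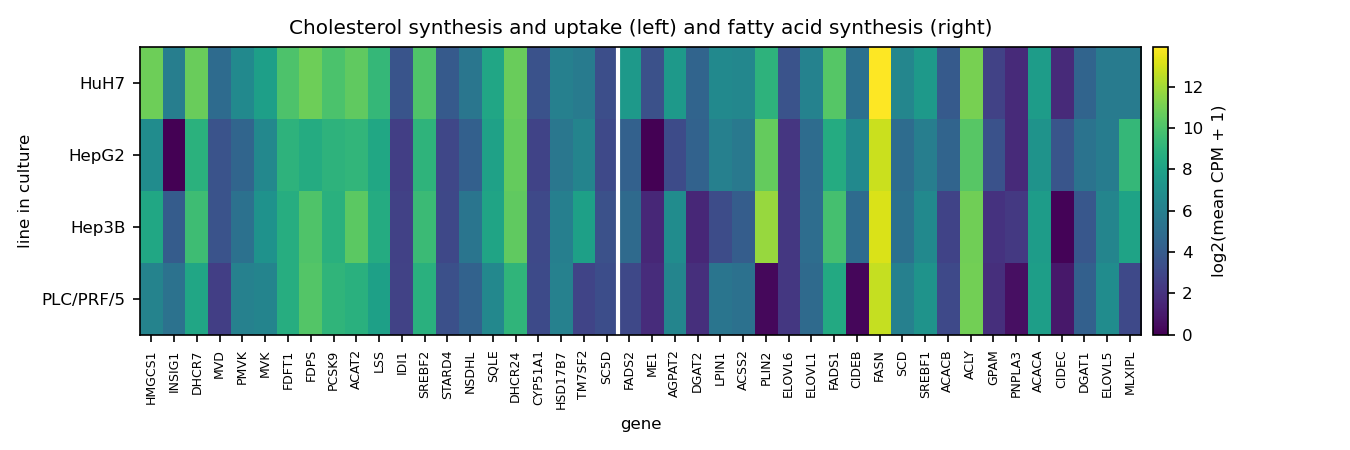
Mean level in the 4 lines, as log2(mean CPM + 1) in colour, of tested members of the cholesterol list (left of the white line) and of the fatty acid synthesis list (right of it), each ordered by the difference of HuH7 from the mean of the others, with 3 libraries per line. The HuH7 row is the brightest for HMGCS1, DHCR7, FADS2 and FASN, and PLIN2, a coat protein of lipid droplets, is brighter in HepG2 and Hep3B.

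Secreted liver proteins were mostly higher than the mean of the other 3 lines. Against the mean of HepG2 and Hep3B, plasma carrier and coagulation genes were mostly lower, and lipoprotein genes were about evenly divided. Of 21 plasma carrier genes tested, 13 were higher and 7 lower against all 3 lines (median 1.52), and 6 higher and 14 lower (median -1.15) with PLC/PRF/5 left out. For 20 coagulation genes the counts were 16 and 4 (1.44), then 7 and 12 (-0.39). For 21 apolipoprotein and lipoprotein genes they were 14 and 6 (0.75), then 9 and 10 (-0.02). APOB, the scaffold of very low density lipoprotein, had 2932, 2842 and 2875 CPM in HuH7, 23730 to 26890 in HepG2, 9274 to 9719 in Hep3B and 1.05 to 1.61 in PLC/PRF/5. SERPINA1, the antitrypsin gene, had 1709, 1698 and 1649 CPM in HuH7, 45570 to 51810 in HepG2, 8657 to 9172 in Hep3B and 3.27 to 6.63 in PLC/PRF/5. For both, HuH7 lay under HepG2 and Hep3B and above PLC/PRF/5, with no overlap between neighbours. The differences from the mean, 1.82 and 0.34, became -2.42 and -3.63 without PLC/PRF/5. APOA1 went from 0.50 to -2.96 and TTR, the thyroxine carrier, from 1.52 to -0.90. ALB was 65.3, 70.7 and 72.8 CPM in HuH7, 22.4 to 28.6 in HepG2, 84.03 to 94.3 in Hep3B and 0 in PLC/PRF/5.

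A smaller group stood above all 9 libraries whatever the line. FGB, the beta chain of fibrinogen, had 2690, 2778 and 2714 CPM in HuH7, 538 to 567 in HepG2, 77.7 to 91.6 in Hep3B and 0.702 to 1.55 in PLC/PRF/5 (difference 5.88, SE 0.0901, limma adjusted p = 2.76e-16). FGA, the alpha chain, followed at 4.33, while FGG, the gamma chain, was 72.3 CPM in HuH7 and 107 in HepG2. The 3 chains of 1 protein thus did not keep 1 order of lines. RBP4, which carries retinol, had 3381, 3660 and 3484 CPM against 1909 to 2282 in HepG2 and Hep3B (3.86). GC, the vitamin D carrier (4.56), HPX, which binds haem (3.18), MTTP, which loads lipid onto APOB (3.10), LIPC, hepatic lipase (2.58), and the anticoagulant cofactors PROS1 (1.80) and PROZ (1.78) also lay above all 9. APOC2, the activator of lipoprotein lipase, did so too (3.21), but its amplicon matched 2 genes.

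Complement genes were divided and acute phase genes were mostly lower. Of 21 complement genes tested 9 were higher and 11 lower (median -0.57), and of 12 acute phase genes 3 and 8 (-0.65). For complement the counts were 10 and 10 (0.14) without Hep3B, 4 and 15 (-0.96) without PLC/PRF/5, and 9 and 8 (-0.13) by edgeR on recovered reads. C3, the central component, was 2882 CPM in HuH7, 12550 in HepG2, 7431 in Hep3B and 994 in PLC/PRF/5. The protease MASP1 (4.91) and the terminal component C5 (3.87) were above all 9 libraries. CFB, whose amplicon matched 2 genes, was below them (-2.96). Among acute phase genes HAMP, the iron hormone hepcidin, was above all 9 (4.26), while SOCS3, an inhibitor of cytokine signalling, was below them at 2.69 CPM against 8.68, 4.29 and 45.9 in HepG2, Hep3B and PLC/PRF/5 (-1.86). SERPINA3, an antichymotrypsin picked out after its values were seen, was 2.23 CPM in HuH7 and 5624 in HepG2.

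Hepatocyte transcription factors followed the split of the lines. Of 22 tested, 14 were higher and 3 lower, with a median of 1.55 that became -0.01, with 10 higher and 7 lower, without PLC/PRF/5. HNF4A, a master regulator of hepatocyte genes, had 1073, 1097 and 1093 CPM in HuH7, 1209 to 1421 in HepG2, 1022 to 1174 in Hep3B and 16.6 to 21.9 in PLC/PRF/5, so HuH7 and Hep3B overlapped. Its difference of 1.84 became -0.13, not called, without PLC/PRF/5. Some factors were higher than in every line. GATA4, which opens chromatin at liver genes, had 463, 483 and 477 CPM in HuH7, 193 to 242 in HepG2, 256 to 285 in Hep3B and at most 0.468 in PLC/PRF/5 (3.48). NR5A2, a regulator of bile acid genes, differed by 4.60 and was 1.71 CPM in HepG2, 112 in Hep3B and 172 in HuH7. GATA6 (2.08, amplicon matching 2 genes) and CREB3L3, a secretory stress factor of the liver (1.86), also stood above all 9. FOXA2 stood above them as well, at 15.2 CPM against 10.8, 11.2 and 0 (1.63).

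**Figure D3:**
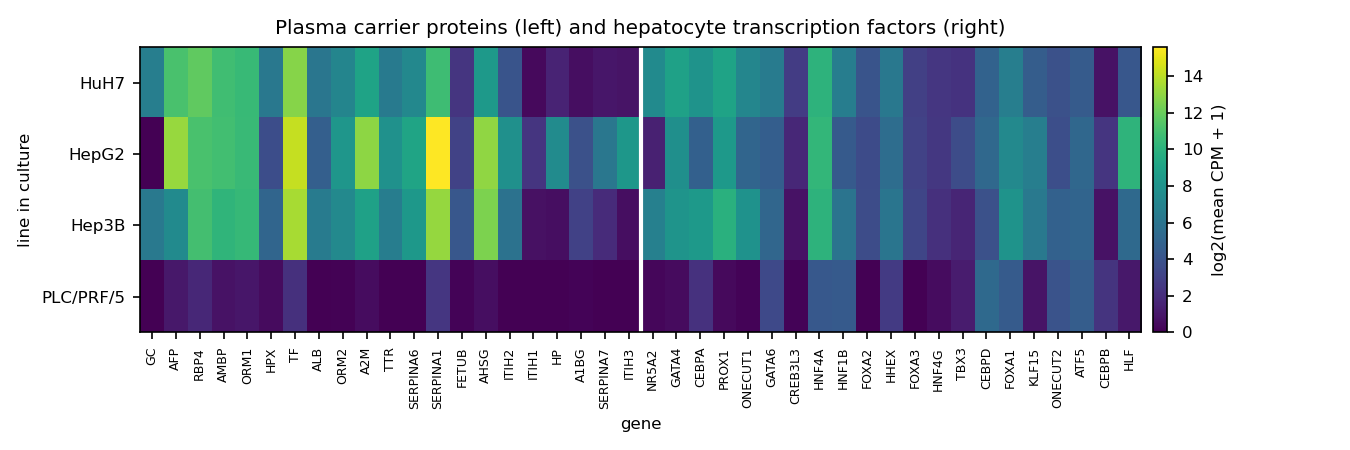
Mean level in the 4 lines, as log2(mean CPM + 1) in colour, of the tested plasma carrier genes (left of the white line) and hepatocyte transcription factors (right of it), each ordered by the difference of HuH7 from the mean of the others, with 3 libraries per line. The PLC/PRF/5 row is dark for nearly all plasma carriers, and HepG2 is the brightest for SERPINA1 and AHSG, a plasma carrier of calcium phosphate.

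Nuclear receptors were evenly divided, with 13 higher and 12 lower of 28 tested, near the shares over all genes (38.5% and 36.9%). Their median was -0.14, which edgeR's fit on recovered reads put at 0.14. NR1H4, the bile acid receptor FXR, was above all 9 libraries at 33.0 CPM against 23.1, 21.3 and 0 in HepG2, Hep3B and PLC/PRF/5 (2.07). NR1D1, a clock repressor (-1.60), ESRRA, an activator of mitochondrial genes (-1.17), and RXRB, a partner of many receptors (-1.16), were below them. Of 20 bile acid genes 7 were higher and 10 lower, with a median of -0.26 by limma and 0.54 by edgeR. Without PLC/PRF/5, 6 were higher and 14 lower (-1.01). The 4 members above all 9 were KLB, FGFR4, the uptake transporter SLCO2B1 (3.06) and AMACR, a racemase of bile acid synthesis (1.05). KLB, the coreceptor for FGF19, had 367, 379 and 368 CPM in HuH7, 140 to 158 in HepG2, 106 to 111 in Hep3B and at most 0.141 in PLC/PRF/5 (3.83). FGFR4, its receptor, had 1157, 1152 and 1066 CPM against 646 to 931 in HepG2 and Hep3B (1.79). FGF19 itself overlapped between HuH7, at 27.8 to 32.1 CPM, and Hep3B, at 29.5 to 32.2, and was under 1 CPM in the other lines. CYP7A1, which sets the pace of bile acid synthesis, did not pass the filter.

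Drug metabolism differed gene by gene. Of 22 cytochromes P450 and their partners tested, 9 were higher and 9 lower (median 0.21, and -0.54 without PLC/PRF/5), and CYP3A4 did not pass the filter. CYB5A, an electron donor to P450 enzymes, had 0.358, 0.258 and 0 CPM in HuH7 against 15.1 to 59.3 elsewhere (-4.79). CYP2E1, which oxidises ethanol, was above all 9 libraries (1.31), and so were CYP2C18 (2.41) and CYP2C19 (1.43), whose amplicons matched 2 genes each. Of 23 conjugating enzymes 12 were higher and 9 lower (median 0.32). GSTP1, a glutathione transferase that is silenced in many liver cancers, had 363, 369 and 371 CPM in HuH7, 199 to 217 in PLC/PRF/5, and 0 reads in all 6 libraries of HepG2 and Hep3B (5.96). GSTM1, another transferase, was 12.8 CPM in HuH7 and 0 in the 9 others (3.77). With GSTT1 at 0, each of these 3 transferases was on in some lines and without reads in others.

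NRF2 targets, which meet oxidative stress, were split, with 13 higher and 7 lower of 25 and a median of 0.22 that became -0.34 (9 higher and 14 lower) with Hep3B left out. GSR, which reduces glutathione (1.78), GCLM, the modifier of glutathione synthesis (1.45), and PGD of the pentose phosphate pathway (0.92) were above all 9 libraries, and GCLC, the catalytic partner of GCLM, was below them (-1.06). NQO1, a quinone reductase, had 365, 356 and 371 CPM in HuH7, 464 to 518 in HepG2, 178 to 188 in PLC/PRF/5 and 5.15 to 6.96 in Hep3B (2.10). AKR1B10, a reductase often raised in liver cancer, did not pass the test (0.22, limma adjusted p = 0.111), and AKR1C1 (0.60) became -1.86 without Hep3B.

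Enzymes of the urea cycle differed in both directions. CPS1, which fixes ammonia, had 0.954, 1.68 and 1.18 CPM, against 20.63 to 23.02 in HepG2, 6.76 to 7.65 in Hep3B and 1259 to 1396 in PLC/PRF/5 (-4.80). ASS1, which makes argininosuccinate, had 35.1, 29.9 and 33.9 CPM against 204 to 806 (-3.24), and ASL, the next enzyme, was also below all 9 (-1.21). OTC, the step between CPS1 and ASS1, did not pass the filter in these lines. NAGS, which makes the activator of CPS1, was instead above all 9 (3.35), and ARG1, which releases urea and was picked out after its values were seen, was higher with overlapping libraries (2.29). Over the whole list, which adds the breakdown of amino acids, 9 of 24 were higher and 11 lower, near the share over all genes, and 4 were higher and 16 lower without PLC/PRF/5.

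Glycolysis and glucose transport had 3 members higher and 15 lower of 25 tested, with a median of -0.42, which without PLC/PRF/5 became -0.04, with 8 higher and 12 lower. ENO2, an enolase (-2.62), SLC16A3, which exports lactate (-1.68), and PGK1, a kinase of the lower pathway (-1.49), lay below all 9 libraries, and ALDOC, an aldolase, lay above them (1.11). SLC2A1, the glucose transporter GLUT1, picked out after its values were seen, was 61.9 CPM in HuH7, 65.8 in Hep3B, 437 in PLC/PRF/5 and 9514 in HepG2. The gluconeogenic and glycogen genes were 6 higher and 9 lower of 18, with PC, pyruvate carboxylase (1.85), PYGB, a glycogen phosphorylase (1.21), and GYS1, a glycogen synthase (1.12), above all 9 libraries.

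Genes of the interferon response were low in HuH7. Of 28 tested, 22 were lower and 4 higher, beside 36.9% lower over all genes, with a median of -1.11 and 8 below all 9 other libraries. IFITM3, which restricts the entry of viruses, had 1.79, 2.45 and 1.44 CPM in HuH7 and 201 to 322 in the 9 others (-6.50, SE 0.125, limma adjusted p = 2.75e-15). The other lines had means of 260.0, 257 and 264 CPM for IFITM3, so HuH7 alone was apart. BST2, or tetherin, which holds budding virus at the membrane, had 0.239, 0.129 and 0.262 CPM in HuH7, 0.966 to 1.31 in Hep3B, 206 to 218 in HepG2 and 475 to 618 in PLC/PRF/5 (-5.71). OAS3, a sensor of double-stranded RNA, had 2.03, 0.902 and 1.31 CPM against 4.201 to 166.6 (-4.05), and IFITM2 differed by -2.36. For BST2 and OAS3 Hep3B was the nearest line, also low. The RNA sensors DDX58, which encodes RIG-I (-2.03), and IFIH1, which encodes MDA5 (-1.46), were below all 9 as well, at 1.34 and 0.334 CPM in HuH7; both were picked out after their values were seen. TLR3 did not pass the filter.

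Among the 4 higher members were the upstream components IRF3 (1.12) and MAVS (0.79), which carry the signal, and MX2 (2.35), a target. Without PLC/PRF/5 the list had 18 lower and 6 higher (median -0.64), without HepG2 20 and 5 (-1.38), and without Hep3B 22 and 4 (-1.61). The direction of the list therefore held against each pair of lines.

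The promoters of 3 of these genes are printed because the interferon-stimulated response element was searched in them. The letters searched were GAAANNGAAA, on both strands of the 250 bases before each start in the RefSeq table for GRCh38.p14. The motif was in 14 of 21 promoters matched to the interferon list (66.7%) and in 6 of 16 matched to the class I list (37.5%), against 1061 of all 35116 promoters (3.02%). The stretches run up to the motif and on toward the start, on the strand of the gene. Each of the 3 promoters held 2 matches, and capitals mark only the match nearest the start. In the stretches of IFITM3 and BST2 the other match is present but not marked. The stretches lie at chr11:320861-320941 on the minus strand for IFITM3, chr19:17405701-17405800 on the minus strand for BST2 and chr12:112938416-112938473 on the plus strand for OAS3. The marked match lies 35, 124 and 12 bases before the start. A match is a description of the letters and shows no binding.
IFITM3: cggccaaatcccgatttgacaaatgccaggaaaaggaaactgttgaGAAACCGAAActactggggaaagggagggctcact
BST2: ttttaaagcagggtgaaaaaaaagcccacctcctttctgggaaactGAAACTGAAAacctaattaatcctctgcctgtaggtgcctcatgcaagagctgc
OAS3: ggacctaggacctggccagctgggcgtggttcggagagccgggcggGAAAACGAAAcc

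Antigen presentation on class I molecules was the list with the lowest median, -1.58, with 14 lower and 1 higher of 17 tested, and 8 below all 9 other libraries. MICA, a stress ligand for natural killer cells, had 0.119, 0.258 and 0.393 CPM in HuH7 against 27.3 to 68.3 (-4.98). TAP1, which pumps peptides into the endoplasmic reticulum, had 0.597, 0.515 and 1.05 CPM against 2.19 to 2.74 in Hep3B and 27.8 to 43.1 in HepG2 and PLC/PRF/5 (-3.24). TAP2, its partner, was also below all 9 (-2.96), though its amplicon matched 2 genes. From the stress ligand to the peptide pump, these genes were lower than in each of the other lines. HLA-E was 24.1 CPM against 299, 63.8 and 181, and B2M, the light chain, was 0.374 CPM against 1.24, 1.25 and 3.27, a level at which its amplicon reads poorly in every line; these 2 were chosen after their values were seen. The 1 higher member was CALR, a chaperone with wider roles (0.42). Without PLC/PRF/5, 14 were lower and 3 higher (-1.63), and without HepG2 11 and 2 (-0.9).

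**Figure D4:**
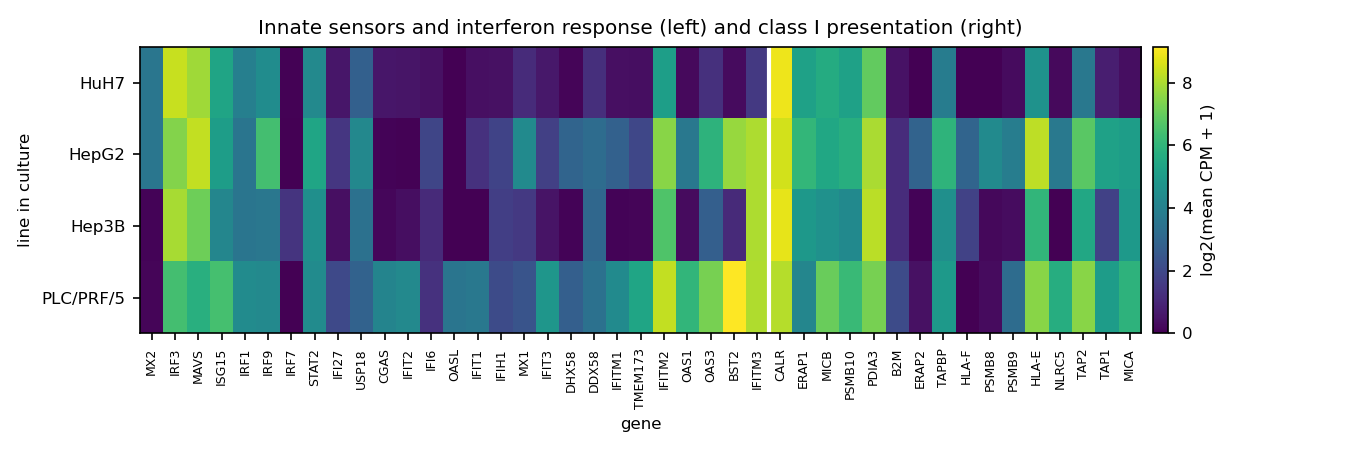
Mean level in the 4 lines, as log2(mean CPM + 1) in colour, of tested interferon response genes (left of the white line) and class I presentation genes (right of it), each ordered by the difference of HuH7 from the mean of the others, with 3 libraries per line. Toward the right end of each block the HuH7 row is dark, while HepG2 and PLC/PRF/5 are bright, and Hep3B is bright for IFITM3 but dark for BST2.

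Of 27 inflammatory mediators tested, 19 were lower and 7 higher, with a median of -0.80. By edgeR on recovered reads 9 were lower and 7 higher (-0.95), so the lower calls depended on the test. BIRC3, an inhibitor of apoptosis induced by NF-kB, differed by -4.31, TNFAIP3, which ends NF-kB signals, by -2.32, and the cytokine LIF by -1.90, each below all 9 libraries. BIRC3 was 0.93 CPM in HuH7, 3.66 in HepG2, 19.1 in Hep3B and 589 in PLC/PRF/5. CXCL16, a membrane-bound chemokine, was above all 9 (1.53). Immediate early genes were divided, 12 higher and 12 lower of 26 (median -0.02). FOSL2 (-2.90) and NR4A1 (-2.53), both growth-induced transcription factors, were below all 9, and the phosphatase DUSP4 was above them (3.41). IER2 was below them too (-4.39), with an amplicon that matched 2 genes.

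DDB2, a DNA repair factor, differed by -1.61, FDXR, a mitochondrial reductase, by -1.67 and TRIAP1, a survival factor, by -1.45, each below all 9 libraries, and MDM2, a ubiquitin ligase, was 28.6 CPM against 67.5, 36.3 and 50.1 (-0.77). CDKN1A, the inhibitor p21, had 85.1, 83.1 and 70.4 CPM in HuH7, 429 to 682 in HepG2, 437 to 828 in PLC/PRF/5 and 4.46 to 5.93 in Hep3B (-0.74). HuH7 thus stood above only Hep3B for CDKN1A. The sign turned when HepG2 (0.32) or PLC/PRF/5 (0.40) was left out, but neither of these differences was called.

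The Wnt list had 6 higher and 13 lower of 22 tested, with a median of -0.76 that became 0.21, with 10 higher and 9 lower, when HepG2 was left out. HepG2 is known for an activating deletion in CTNNB1, the beta-catenin gene. AXIN2, a direct target, had 362 to 436 CPM in HepG2 and 6.204, 5.67 and 5.37 in HuH7, which overlapped Hep3B at 5.15 to 6.76. Its difference of -1.82 became 0.22, not called, without HepG2. LGR5, a stem cell receptor and target, was at most 1.05 CPM in HuH7, 172 to 179 in HepG2 and 29.3 to 31.6 in Hep3B. CTNNB1 RNA did not pass the test (0.14, limma adjusted p = 0.345). MYC did differ from every line, with 32.1, 27.3 and 32.6 CPM in HuH7, 139.8 to 146 in Hep3B, 294 to 329 in HepG2 and 609 to 698 in PLC/PRF/5 (-3.29, SE 0.0625, limma adjusted p = 2.52e-15). The Wnt antagonist DKK3 was above all 9 libraries (4.20), and RNF43, which removes Wnt receptors and whose amplicon matched 2 genes, was below them (-1.72).

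Genes of DNA replication and mitosis were higher than the mean of the 3 lines, but not evenly so once HepG2 was left out. Of 32 replication genes 22 were higher and 4 lower (median 0.51), and of 28 mitosis genes 18 and 3 (0.41). Without HepG2 the counts were 13 and 13 (0.07) and 6 and 9 (-0.11). Members that stood above all 9 libraries included MCM7 of the replicative helicase (1.31), GINS1 (1.44) and GINS4 (1.40) of the complex that activates it, CDC20, which drives the exit from metaphase (1.37), and the kinase AURKB (1.11). MKI67, the proliferation marker, was 156 CPM against 52.9, 102 and 182 (0.65). TYMS, thymidylate synthase and the target of fluorouracil, went against its list, with 139.7 to 154.3 CPM in HuH7 and 311 to 1034 elsewhere (-1.74). Among cyclins and inhibitors, 10 higher and 13 lower of 23, CDK6, a G1 kinase, had 30.3, 28.5 and 34.2 CPM against 136 to 236 (-2.46), and E2F1, a driver of S phase, had 199.7, 211 and 210.0 against 40.2 to 126 (1.61). CDKN2A, which encodes p16, was 34.04 CPM against 9.03, 262 and 399.5 (-1.53).

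Fetal liver genes were divided. AFP, the fetal counterpart of albumin, had 2208, 2238 and 2210 CPM in HuH7, 9096 to 9397 in HepG2, 168 to 183 in Hep3B and at most 1.55 in PLC/PRF/5 (3.91). GPC3, a glypican used as a liver cancer marker, had 1356, 1431 and 1331 CPM, below the 1848 to 1928 of Hep3B and 8224 to 9674 of HepG2 (2.17, and -1.59 without PLC/PRF/5). DLK1, a fetal Notch-like protein, was at most 0.597 CPM in HuH7, 2279 to 2655 in HepG2, 1287 to 1449 in Hep3B, and at most 0.988 in PLC/PRF/5, with which HuH7 overlapped (-7.03). The 3 markers of the fetal liver thus did not keep 1 order of the lines. HuH7 stood above Hep3B for AFP and under it for GPC3 and DLK1. SPINK1, a trypsin inhibitor, had 78.4, 76.7 and 78.8 CPM against at most 2.78 (5.63), and ALDH1A1, which makes retinoic acid, was above all 9 as well (3.90). So was LIN28B, which blocks maturation of let-7 microRNAs (2.71). HMGA1, a chromatin protein, was below them (-2.36). The whole oncofetal list had 12 higher and 10 lower of 23 (median 0.50), and 9 and 10 (-0.07) without PLC/PRF/5.

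Imprinted genes had 5 higher and 13 lower of 20 tested, with a median of -0.68, and leaving out any 1 line kept it between -0.90 and -0.43. Besides SNRPN, the placental gene PHLDA2 (-1.50) and GNAS, which encodes a stimulatory G protein (-1.08), were below all 9 libraries, and MEST, a gene of the paternal copy, was above them at 334 CPM against 60.6, 135 and 39.5 (2.27). IGF2, whose amplicon matched 2 genes, had 6277, 6463 and 6023 CPM in HuH7, 11740 to 15880 in HepG2, 65380 to 76170 in Hep3B and 5.26 to 15.4 in PLC/PRF/5 (1.61, and -2.31 without PLC/PRF/5). Of 13 genes of the IGF axis, 8 were higher and 5 lower (median 0.88), which became 5 and 7 (-1.05) without PLC/PRF/5. IGFBP3, the main carrier of IGF in plasma (3.56), and the insulin receptor INSR (1.57) were above all 9, and IGFBP7 had 0 reads in HuH7 against 2.34, 37.7 and 154 CPM in HepG2, Hep3B and PLC/PRF/5.

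Entry factors of hepatitis viruses were mostly higher in HuH7 than in the mean of the other 3 lines. Of 24 tested, 14 were higher and 3 lower, beside 38.5% and 36.9% over all genes. Their median was 0.50, and 8 lay above all 9 libraries, beside 16.2% over all genes. CLDN1, a tight junction protein and entry factor of hepatitis C virus, had 1008, 967 and 832 CPM in HuH7, 637 to 662 in Hep3B, 61.1 to 85.9 in HepG2 and 39.5 to 44.9 in PLC/PRF/5 (2.86). OCLN, occludin, was 434 CPM against 261, 296 and 35.9 (1.61), and SCARB1, the lipoprotein receptor, was 399 CPM against 319, 277 and 328 (0.38), both above all 9. CD81, the tetraspanin, was 156 CPM in HuH7 between 124 in PLC/PRF/5 and 189.8 in Hep3B, with 0.0491 in HepG2 (2.42). The 4 classical entry factors of hepatitis C virus were thus all well above the floor in HuH7, and HepG2 was near 0 for CD81. CLDN6 was above all 9 too (5.63). Without PLC/PRF/5, 12 members were higher and 9 lower, with a median of 0.10.

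Epithelial and mesenchymal markers were divided. CDH1, E-cadherin, had 114, 122 and 115 CPM in HuH7, 72.7 to 79.2 in Hep3B, 9.96 to 11.4 in HepG2 and at most 0.804 in PLC/PRF/5 (3.35), while CDH2, N-cadherin, had 78.7, 83.1 and 88.98 CPM against 357 to 654 (-2.67), with an amplicon that matched 2 genes. The cadherins moved in opposite directions, each without overlap. LGALS1, a galectin often raised in mesenchymal cells, was 19.7 CPM against 478, 222 and 740 (-4.37), and SNAI1, a repressor of E-cadherin, was nevertheless above all 9 libraries (1.74). KRT19, a biliary keratin, had 1700, 1576 and 1507 CPM against 342 to 1304 (0.92). VIM, vimentin, was 3.91 CPM against 0, 2.77 and 3.62 (0.91), and EPCAM went from -0.60 to 0.22 without Hep3B. Of the 23 epithelial and mesenchymal markers 9 were higher and 13 lower.

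Of 32 matrix and integrin genes 18 were higher and 12 lower (median 0.33), and 13 and 15 (-0.08) without Hep3B. NID1, a basement membrane linker, was above all 9 libraries (3.75). ITGB4, the integrin chain of hemidesmosomes, had 3.82, 5.54 and 5.89 CPM in HuH7, 54.9 to 62.3 in HepG2, 119.9 to 135.9 in Hep3B and 925 to 1254 in PLC/PRF/5 (-5.06), and its ligand chain LAMA3 (-2.84) and the matrix protein NPNT (-2.92) were below all 9 with it. The protease ADAMTS1 (4.89) and MMP14, a membrane collagenase (4.04), were above, and the inhibitor TIMP2 was below (-2.27).

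Targets of YAP and TGF-beta were 12 higher and 9 lower of 24, with a median of 0.22 that became -0.04, with 10 higher and 11 lower, without Hep3B. CTGF, a known YAP target, had 2451, 2455 and 2423 CPM in HuH7, 1203 to 1267 in HepG2, 488 to 496 in Hep3B and 57.3 to 62.6 in PLC/PRF/5 (2.87). ANKRD1 was 182 CPM against 46.1, 48.6 and 0.287 (3.67), and CYR61 (1.92) and AMOTL2 (1.96), picked out after their values were seen, were above all 9 as well. YAP1 RNA went the other way, at 4.01 CPM against 14.1, 7.93 and 65.8 (-2.06). TGFB2, a ligand, was above all 9 (3.07), and TAGLN, an actin-binding target, below (-3.56). VGLL3, at the head of all genes, was thus high in the same libraries as CTGF, ANKRD1, CYR61 and AMOTL2. The list as a whole was divided, and a link of VGLL3 to its members was not tested.

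Among receptors and ligands, 10 of 26 were higher and 15 lower (median -0.46). PDGFRA, a growth factor receptor whose amplicon matched 2 genes, had 179, 193 and 186 CPM in HuH7, 105 to 112 in Hep3B and at most 0.295 in HepG2 and PLC/PRF/5 (5.23), and ERBB4, a neuregulin receptor, was above all 9 (2.40). TGFA, a ligand of the EGF receptor, was at most 0.119 CPM against 0.322 to 241 (-4.89), and PDGFRB was below all 9 (-2.47). Of the 25 Nodal, BMP and Notch genes 13 were higher and 9 lower (median 0.90), with 8 above all 9 and 0 below. BMP2 had 454, 462 and 473 CPM in HuH7 against at most 83.5 (5.04), and ID1, a direct BMP target, was 1150 CPM against 358, 364 and 98.6 (2.30). JAG1, a Notch ligand, had 4554, 4631 and 4585 CPM, 884 to 1038 in HepG2, 953 to 1012 in Hep3B and 28.38 to 38.01 in PLC/PRF/5 (3.85), and NOTCH1 was above all 9 (1.96). For BMP a ligand and a target, and for Notch a ligand and a receptor, were thus above every other library.

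Genes normally silent in adult liver were on in HuH7 in a few cases. Of 34 cancer-testis genes 25 did not pass the filter and 9 were tested. Of these 4 were higher, all above all 9 libraries, and 4 were lower, beside 38.5% and 36.9% over all genes. A gene silent in the other lines passes the filter only through the line where it is on. The direction of such a gene was thus set by the filter. MAGEB2 was 376 CPM against 0.502, 0.0438 and 143 (5.96), PRAME 69.0 CPM against 0.229, 1.43 and 37.2 (3.86), and TEX15 (2.66) and DDX43 (2.30) followed. Of 39 HOX genes, under the same limit, 19 were tested, 9 higher and 7 lower (median 0.05). By edgeR on recovered reads they were 12 and 1 (1.90), and without PLC/PRF/5 11 and 4 (1.32). HOXC10 was 26.8 CPM in HuH7, 11.9 in PLC/PRF/5 and 0 in HepG2 and Hep3B (3.57), and HOXC13 (3.45), HOXC6 (3.43) and HOXA9 (2.64) were above all 9 too. PLC/PRF/5 was the nearest line for MAGEB2, PRAME, HOXC10 and HOXC13.

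Genes of metal handling were higher in part. Of 14 metallothioneins and zinc transporters 9 were higher and 4 lower (median 0.71), with the metallothionein MT1F (4.29) and the zinc importer SLC39A8 (2.37) above all 9 libraries and another importer, SLC39A4, below them (-4.27). Of 18 iron genes 8 were higher and 6 lower, and 6 and 8 without PLC/PRF/5. SLC40A1, the iron exporter ferroportin, was 154 CPM against 23.6, 43.0 and 0.124 (3.86), and its inhibitor HAMP was high in the same libraries. HFE2, which encodes hemojuvelin, the BMP coreceptor that induces HAMP, was above all 9 (3.40), and SLC11A2, an importer, was below (-0.83).

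Stress programmes were lower or divided. Of 25 ATF4 and serine synthesis genes 4 were higher and 15 lower, with a median of -0.45 that became 0 without PLC/PRF/5. STC2, a secreted glycoprotein, had 19.3, 17.9 and 18.1 CPM in HuH7 against 90.4 to 558 (-3.80), and the amino acid transporter SLC7A1 (-2.04), the folate enzyme MTHFD2 (-1.33) and DDIT4, an inhibitor of mTORC1 (-2.81, amplicon matching 2 genes), were below all 9 with it. ATF4 itself did not pass (0.00). The unfolded protein response had 11 higher and 7 lower of 23, with CREB3L1 (3.67), CRELD2 (1.79), DNAJB9 (1.62) and EIF2AK3, which encodes the sensor PERK (0.97), above all 9. Hypoxia targets had 9 higher and 10 lower of 26, and 12 and 8 without PLC/PRF/5. HIF1A, the oxygen-regulated factor, had 2495, 2543 and 2460 CPM in HuH7 against 557 to 714 (1.97), but its target CA9 was below all 9 (-2.77), as was ANKRD37 (-2.17). Alcohol and aldehyde dehydrogenases had 7 higher and 11 lower of 23, with ALDH1A1 and ALDH8A1 (2.62) above all 9 and the mitochondrial ALDH1B1 below (-1.72).

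The direction of many lists rested on which lines were averaged. Of 43 lists plotted by share, the median changed sign for 11 without HepG2, for 4 without Hep3B and for 9 without PLC/PRF/5, which makes 24 lists in all. Those of cholesterol synthesis, fatty acid synthesis, interferon response and class I presentation kept the sign of the median under each. Nuclear receptors, cytochromes P450, immediate early genes, HOX genes and hypoxia targets lay near the shares over all genes, 38.5% higher and 36.9% lower.

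**Figure D5:**
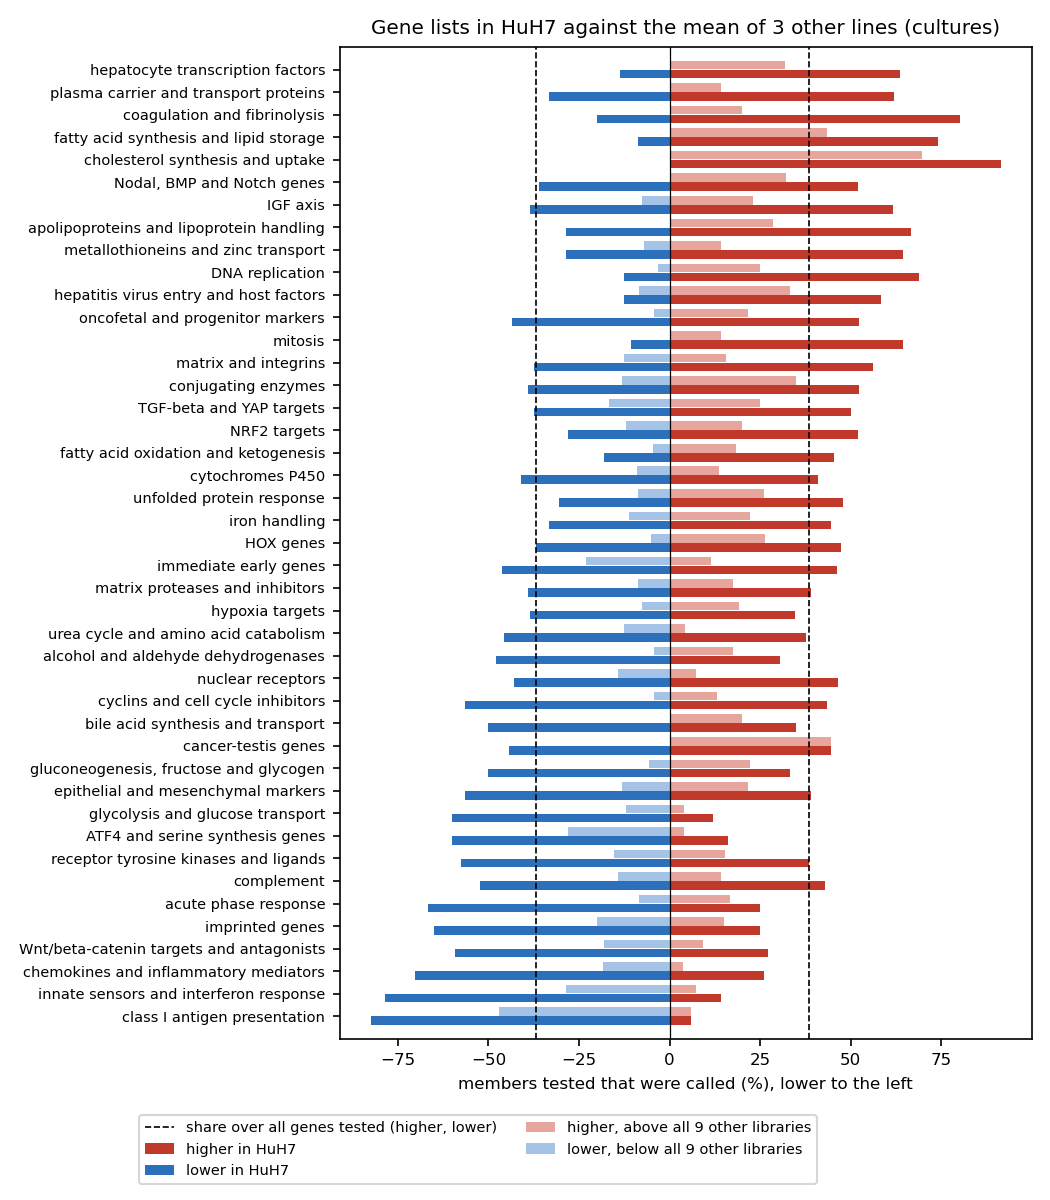
Share of the tested members of each of 43 gene lists that were called higher (dark red, to the right) or lower (dark blue, to the left) in HuH7 cultures than in the mean of 3 other lines, in percent, with the lighter bars for called members outside the range of all 9 other libraries, ordered by the median difference of the list. Dashed lines mark the shares over all genes tested, 38.5% and 36.9%: cholesterol synthesis has 21 of 23 members higher and none lower, and class I presentation has 14 of 17 lower.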

How the data were processed

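Values came from 1 table of the series. The signal deposited by the authors sums to 500000 per library and was multiplied by 2 to give CPM. Low values rose in equal steps, and whole reads were recovered from them: at least 99.9895% of the values of each culture library lay within 0.01 of a whole read (largest departure 0.067). The submitters' processing notes name the build hg38, but no source used here gives the aligner or the counting. 26 symbols that a spreadsheet had turned into dates were restored through their Entrez numbers, and 5 duplicated symbols were made distinct. The table's own symbols are kept, such as CTGF for CCN2 and CYR61 for CCN1.

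The 12 culture libraries were fitted with limma 3.58.1 (trended variance, log2(CPM + 1), TMM scaling by edgeR 4.0.16 in R 4.3.3) to 4 group means, with 8 residual degrees of freedom. Low genes were removed with edgeR's filterByExpr (groups as given, minimum 10 reads), which left 12377 of 18961. Benjamini-Hochberg adjustment ran over all tested genes, with a call under 0.05. On the recovered reads, edgeR's quasi-likelihood test called 5002 genes higher and 3734 lower. The script was tested on simulated data.

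The comparison, the 44 gene lists, the markers and the rule for named genes were chosen with earlier results of these data known. Named are 44 key genes whatever their values (43 measured, 40 tested), the 15 highest and 15 lowest genes that reach 10 CPM and do not overlap, and up to 4 called, non-overlapping members per list. List members named with a value beyond this rule were chosen after their values were seen. Some genes that the rule names, and some amplicon sequences, are not reported here. H19, MSMO1, MEG3, UGT1A1, UGT1A6, SSX2, CXCL11 and IL18 were not analysed here. Exact matches to GENCODE 29 transcripts placed 18826 amplicons and left 135; 1211 matched several genes. Promoters and motif shares come from the RefSeq table. Alternatives were other scalings, filters, pseudocounts and tests, a replicate block, and each line or library left out.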

Additional observations from a re-analysis of the deposited data

Results flagged for a closer look

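The named genes tested were also compared between tumours, 4 libraries a line from the chick egg, and cultures, in 1 limma fit to all 28 libraries. Listed here are 16 that were called in opposite directions in the 2 settings and for which the difference between settings was itself called (Benjamini-Hochberg adjusted over genes). The kit for RNA extraction also differs between the settings, so the kit and growth in the egg cannot be told apart. Values are tumours minus cultures of the difference between HuH7 and the mean of the other lines. In this fit the culture values differ slightly from those of the 12 libraries alone. Its filter and TMM scaling were set on all 28 libraries.

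Some secreted liver proteins were high in HuH7 cultures against the mean and low in HuH7 tumours. AFP changed by -7.25, from 3.86 in cultures to -3.39 in tumours. In tumours HuH7 held 373 CPM of AFP, HepG2 23500, Hep3B 15330 and PLC/PRF/5 153. APOB changed by -5.12, RBP4 by -4.49 and TTR by -2.98. The averaged lines moved as well: PLC/PRF/5 held 110.7 CPM of APOB in tumours and 1.31 in cultures. With PLC/PRF/5 left out, APOB (-2.42) and TTR (-0.90) were lower in HuH7 cultures too, while AFP and RBP4 kept their sign. The change between settings was not tested without that line. Others stayed higher in tumours, among them FGB (2.82), HAMP (2.51) and HPX (1.83). Of 22 plasma carrier genes tested in this fit 2 were higher and 18 lower in HuH7 tumours, beside 29.9% higher and 27.1% lower over all genes, and of 20 coagulation genes 7 and 7. Among lipid genes INSIG1 changed by -4.21, SCD by -2.81, FASN by -2.71 (2235 CPM in HuH7 tumours) and DHCR7 by -2.48. HFE2 (-4.64), NQO1 (-3.78), the bile acid receptor NR1H4 (-3.65), CXCL16 (-2.53) and ALDOC (-1.96) also went from higher to lower. 3 genes went from lower to higher: NPNT by 4.28, CDH2 by 3.36 (418 CPM in HuH7 tumours, amplicon matching 2 genes) and SOCS3 by 2.67. In tumours 2 of 23 genes of the cholesterol list were higher in HuH7 and 17 lower (median -1.09), against 16 and 0 in cultures in the same fit. For fatty acid synthesis 4 of 23 were higher and 13 lower (median -0.57), against 14 and 1 in cultures. HMGCS1 (0.57) and the acyltransferase AGPAT2 (3.99) were still higher in tumours.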

How the results depend on the processing

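The main counts of 4767 higher and 4565 lower moved by over 1.5 times with a minimum of 2-fold (1916 and 1472) and with all 28 libraries in the fit (3071 and 2708), where the cause was not tested. Without 1 library at a time they were 4426 to 4852 and 4334 to 4841. The replicate block gave 4731 and 4523. Deviations of same-numbered libraries correlated at -0.327 to 0.16 over 18 pairs, and 3 of 12 libraries matched best with their own number. No pairing by number was seen in these deviations. With 3 libraries a line, they cannot show whether same-numbered libraries were handled together. DESeq2's Wald test gave 4802 and 3830, and limma-voom 4999 and 4218. Of 216 named genes tested, 12 changed sign in 14 cases when a line was left out, and 2 under other settings. Without PLC/PRF/5 the differences were APOA1 -2.955, APOB -2.415, TTR -0.8982, SERPINA1 -3.634, HNF4A -0.133, GPC3 -1.588, IGF2 -2.314, CDKN1A 0.3978 and AKR1B10 -0.4277, and the liver genes among them were low in the cultures of that line. Without HepG2 they were CDKN1A 0.322 and AXIN2 0.2241, and without Hep3B AKR1B10 -0.7253, AKR1C1 -1.86 and EPCAM 0.2198. A pseudocount of 5 CPM gave APOA1 -0.09988 and AKR1B10 -0.2817. Among these reversed values, those of HNF4A, CDKN1A and AXIN2, and that of APOA1 with the pseudocount of 5 CPM, were not called. Genes near the floor of 0.346 to 0.483 CPM are limited by depth, and 1 amplicon per gene limits every value.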

Other observations

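Genes that were on or off in 1 line were counted after the data were seen. 20 genes had at most 3 reads in every HuH7 library and at least 10 CPM in all 9 others, against 32 such genes for HepG2, 14 for Hep3B and 112 for PLC/PRF/5. Besides those named above, they include the ubiquitin ligase RNF20 (0 reads in HuH7, at least 127-fold lower), the mannosyltransferase subunit DPM2, the mitochondrial APOOL (0 reads, at least 95.6-fold lower), the sorting receptor SORL1 (0 reads, at least 79.8-fold lower) and TAF8, a subunit of the basal transcription factor TFIID (0 reads, at least 47.4-fold lower). These folds, too, are taken against the average of the 3 other line means. In the other direction 27 genes were on in HuH7 alone, against 40 for HepG2, 10 for Hep3B and 91 for PLC/PRF/5. Among them are the transcription factors SOX21 (60.6 CPM) and EBF3 (32.3 CPM), the intestinal cadherin CDH17 (12.3 CPM), the annexin ANXA13 (65.5 CPM) and the gut hormone PYY (14.7 CPM), each at a mean under 0.4 CPM in the other lines.

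Replication-dependent histone genes were looked at because HIST1H1A and HIST1H3I were among the highest genes. Of 61 tested, 40 were higher and 9 lower (median 0.73), beside 38.5% and 36.9% over all genes. Above all 9 libraries lay 15, beside 16.2% over all genes. HIST1H1A and HIST1H3I are counted among the 40 and the 15. They summed to 12400 to 12970 CPM in HuH7, 5876 to 6085 in HepG2, 10470 to 10820 in Hep3B and 8225 to 11710 in PLC/PRF/5. Near-identical copies can share reads, so single members are uncertain.

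Medians by chromosome ranged from -0.42 on chromosome 15 (19.5% of 389 tested genes higher, 57.3% lower) to 0.42 on chromosome 22 (58.4% of 308 higher, 19.8% lower). On chromosome 15 the median was -0.15 against HepG2, -0.47 against Hep3B and -0.51 against PLC/PRF/5. Copy number was not measured, and its part in these values was not tested.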
